A study of Mus musculus with 21 samples.

Results

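Activin and TGF-beta signaling was followed through 10 genes, chosen by name from the 45706 gene rows of the series: the ligand genes Inhba and Tgfb1, Lrrc33, the receptor genes Acvr1b, Acvr2a, Tgfbr1 and Tgfbr2, the SMAD genes Smad3 and Smad7, and Ski. Inhba was picked because it was low in mutant microglia at 1 d, so its levels at 1 d are given as a description, with no test. Lrrc33 is listed as Nrros in the GENCODE M21 annotation and was matched through a RefSeq synonym. All 10 genes passed the filter of at least 5 counts over all libraries.

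The series holds 21 RNA-seq libraries in 7 groups of 3, each library from the sorted cells of 2 randomly pooled mouse brains. Microglia (CD45low CD11b+) came from sham controls, which had a craniotomy without impact and carried the wild-type fibrinogen gene, and from injured wild-type (WT) and Fgg γ390-396A animals, sampled 1 d or 7 d after a controlled cortical impact, a model of traumatic brain injury. The day after sham surgery is not given for the sham libraries, which serve as the baseline for both 1 d and 7 d. Infiltrating myeloid cells (CD45hi CD11b+), called macrophages in the labels, came from both genotypes at 1 d only. The Fgg γ390-396A knock-in mouse makes a fibrinogen that clots normally but lacks the stretch that binds the CD11b/CD18 integrin on microglia and myeloid cells. All mice were C57BL/6 males of 17 to 24 weeks, cells were taken from a block of tissue around the lesion, and the series has no sham group for the mutant genotype or for infiltrating myeloid cells.

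Total counts per library ranged from 18896957 to 51875767, of which ribosomal RNA genes took 43.0% to 58.6%. Levels are CPM, counts scaled to a common library total after TMM correction. Gene length was divided out by the authors, so CPM can be compared between genes. A floor of 3 counts, below which a level is not told from 0, corresponded to 0.0448 to 0.158 CPM across libraries and covers counting error only. Counts are the deposited scaled estimates and not numbers of reads, so this floor and the counting intervals below are approximate. The summed level of 8 microglia markers was 10037 to 11159 CPM in sham microglia and 345 to 963 CPM in infiltrating myeloid cells. A gene was called when its log2 fold change was above 1 in size and its adjusted p was under 0.05, or under 0.1 between genotypes.

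Activins and TGF-beta are secreted dimers of one protein family. Inhba encodes the chain of activin A. TGF-beta 1 leaves the cell in a latent form, which the protein encoded by Lrrc33 tethers to the surface of microglia and macrophages until integrins release it. Activin A signals through the receptors encoded by Acvr2a and Acvr1b and TGF-beta through those encoded by Tgfbr2 and Tgfbr1, and both phosphorylate the SMAD proteins encoded by Smad2 and Smad3. Smad7 encodes an inhibitory SMAD induced by the pathway, and Ski a corepressor of SMAD target genes. In the brain, TGF-beta signaling keeps microglia in their mature, homeostatic state.

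Of the 10 genes, the 2 whose group means varied most were Inhba and Tgfbr1, and the windows around their annotated starts are shown for orientation, from 250 bases before to 50 bases after the start. Capitals mark TATAAA, the only motif found in these 2 windows. The sequences are RefSeq windows of GRCm38.p6, both on the plus strand, at chr13:16011601-16011900 for Inhba and chr4:47352972-47353271 for Tgfbr1.
Inhba: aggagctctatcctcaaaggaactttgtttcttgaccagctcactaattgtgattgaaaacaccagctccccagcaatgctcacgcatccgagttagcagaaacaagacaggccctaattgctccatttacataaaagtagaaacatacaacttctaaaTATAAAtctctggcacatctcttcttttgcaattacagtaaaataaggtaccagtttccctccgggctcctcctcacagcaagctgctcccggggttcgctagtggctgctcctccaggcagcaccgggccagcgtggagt
Tgfbr1: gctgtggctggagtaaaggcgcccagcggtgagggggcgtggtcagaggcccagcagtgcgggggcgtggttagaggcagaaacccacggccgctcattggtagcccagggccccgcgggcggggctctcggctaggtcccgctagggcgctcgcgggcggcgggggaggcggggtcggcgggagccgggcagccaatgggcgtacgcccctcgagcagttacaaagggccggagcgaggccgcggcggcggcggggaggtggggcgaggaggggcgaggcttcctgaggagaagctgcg
The TATAAA of Inhba began 91 bases before the start. In all, 5 motifs were searched on both strands: TGANTCA (AP-1), TGACGTCA (CRE), GTCTAGAC (SMAD palindrome), TATAAA and GAGGAAGT (PU.1). Of 32851 windows of the same length, 7.81% held the AP-1 motif, 1.79% CRE, 0.213% the SMAD palindrome, 13.6% TATAAA and 3.20% the PU.1 motif. Windows were searched for 9 of the 10 genes, all but Smad7, and the TATAAA of Inhba was the only match among them. The start of Smad7 was not searched, so nothing can be said of its motifs.

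The genes differed widely in level. Tgfbr1, the type I TGF-beta receptor, was the most abundant in microglia, with a mean of 443.9 CPM in sham microglia. Tgfbr2, the type II receptor, followed at 142.0 CPM, Tgfb1 at 121.8 CPM, Ski at 105.5 CPM and Lrrc33 at 58.9 CPM. Smad3 stood at 31.3 CPM, Smad7 at 24.7 CPM, and the activin receptors Acvr2a and Acvr1b at 9.09 and 7.74 CPM. Inhba was at or under 1 count in each sham library. In sham microglia the receptors for TGF-beta were therefore more than 10 times as abundant as those for activin.

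Inhba was all but absent from sham microglia, was measured in WT microglia at 1 d and was most abundant in infiltrating myeloid cells. In sham microglia it had 0, 1 and 0 counts, the single count being worth 0.0380 CPM. In WT microglia at 1 d it reached 8.05, 0.905 and 4.14 CPM, from 211, 25 and 106 counts. In Fgg γ390-396A microglia at 1 d it was 0.209, 0.0252 and 0.161 CPM, from 14, 1 and 4 counts. Every WT library at 1 d lay above every mutant library at 1 d, and the 25 counts of WT replicate 2 set it well below the other WT libraries. Pooled over libraries, the mutant level at 1 d was 0.0335 times the WT level (95% counting interval 0.0199 to 0.0532), a difference that chose the gene. In that comparison of all 23815 genes tested, 0.0336% were called higher and 0.0210% lower in the mutant. Against the 1 count of sham microglia, the level at 1 d came to a ratio of 420 in WT (counting interval 74.8 to 16623) and 14.1 in mutant microglia (2.24 to 585), given as a description.

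At 7 d Inhba had nearly gone from microglia. It was 0.239, 0.203 and 0.348 CPM in WT microglia, from 5, 5 and 9 counts, and 0.0512, 0.0718 and 0.0359 CPM in mutant microglia, from 2, 2 and 1 counts. The libraries of both genotypes did not overlap, but every mutant library was under the floor of 3 counts, and the log2 fold change of -2.25 ± 1.46 (SE) did not pass the test (adjusted p = 1, edgeR). Against sham microglia, the 19 counts of WT microglia at 7 d came to a ratio of 25.9 with a 95% counting interval of 4.12 to 1078, which did not pass the test across libraries (adjusted p = 0.388). Mutant microglia at 7 d and sham microglia were both under the floor, so no fold is given.

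In infiltrating myeloid cells Inhba stood at 76.8, 28.0 and 131 CPM in WT mice and 15.7, 6.61 and 72.5 CPM in Fgg γ390-396A mice. Each of these libraries except mutant replicate 2 was above every microglia library, and that one, at 6.61 CPM, lay below WT microglia replicate 1. Pooled counts gave 18.6 times the microglia level in WT mice (counting interval 16.7 to 20.8) and 226 times in mutant mice (144 to 376), on libraries that took part in the choice of the gene. These ratios rested on single libraries: without mutant infiltrating replicate 3, which held most of the counts, the mutant ratio was 68.1, without mutant infiltrating replicate 2 it was 352 and without mutant microglia replicate 1 it was 421, and without WT microglia replicate 1 the WT ratio was 32.6. Between genotypes, which the choice did not use in these cells, the groups overlapped and the log2 fold change of -1.31 ± 0.70 was not called (adjusted p = 0.468). This value turned on mutant replicate 3: without it the log2 fold change was -2.82 with an adjusted p of 0.0586, and over the 15 alternatives tried the adjusted p ran from 0.0586 to 0.826. Of all genes, 0.252% were called higher and 0.202% lower in mutant infiltrating myeloid cells.

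In WT libraries at 1 d, neutrophil markers were in the same order as Inhba. The summed level of 9 neutrophil markers, such as S100a8, S100a9 and Ly6g, was 773, 122.8 and 508 CPM in the 3 WT microglia libraries at 1 d and 336, 51.8 and 22.7 CPM in the mutant libraries. In infiltrating myeloid cells it was 8258, 3450 and 12937 CPM in WT mice and 2491, 5654 and 5048 CPM in mutant mice. Neither mutant group followed the order of Inhba: mutant infiltrating replicate 2 had the most of these markers and the least Inhba, and mutant microglia replicate 3 the least of them but more Inhba than replicate 2. S100a8 and S100a9 made up 75.8% to 96.8% of the sum in every library. The other 7 markers summed to 25.7, 4.88 and 16.4 CPM in WT microglia at 1 d, 48.1, 7.5 and 0.844 CPM in mutant microglia at 1 d and 0.319, 14.4 and 115 CPM in sham microglia. In infiltrating myeloid cells they summed to 387, 232 and 561 CPM in WT and 400, 605 and 447 CPM in mutant mice. Against sham, 6 of the 9 markers had a log2 fold change below 0 in WT microglia at 1 d (median -1.42). Inhba per 1000 CPM of these markers was 10.4, 7.37 and 8.14 CPM in WT microglia at 1 d, against 9.30, 8.10 and 10.1 CPM in WT infiltrating myeloid cells. In mutant microglia at 1 d it was 0.621, 0.486 and 7.09 CPM. These ratios use the sum of all 9 markers and so rest mainly on S100a8 and S100a9.

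The same markers were present in microglia that held little Inhba. Sham replicate 3 had 628 CPM of neutrophil markers and 0 counts of Inhba, and WT replicate 1 at 7 d had 666 CPM of them and 0.239 CPM of Inhba. All 9 neutrophil markers were detected in each group. The 6 monocyte markers summed to 4.81 to 60.5 CPM in WT and 5.26 to 53.5 CPM in mutant microglia at 1 d, and the 6 markers of border-associated macrophages to 125 to 221 CPM and 103 to 139 CPM. The 9 genes of the response to cell dissociation, such as Fos and Atf3, summed to 278 to 367 CPM in WT and 62.8 to 252 CPM in mutant microglia at 1 d, without overlap. In sham microglia they summed to 809, 92.9 and 130 CPM, and sham replicate 1, the highest, had 0 counts of Inhba. At 7 d they summed to 205 to 329 CPM in WT and 174 to 271 CPM in mutant microglia. The part of these cells and of this response in the level of Inhba was not tested. In sorted pools, fewer cells of a type and less RNA per cell cannot be told apart.

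**Figure D1:**
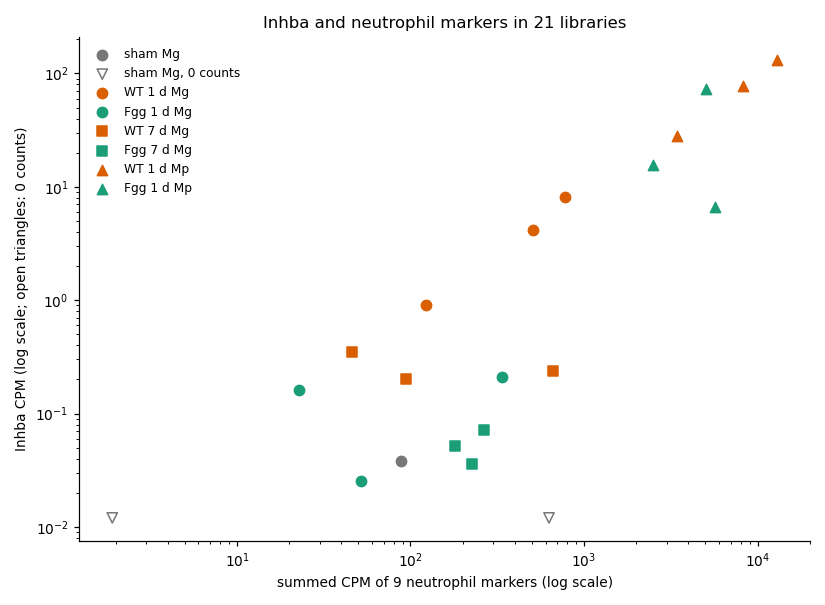
Inhba (CPM, log scale) against the summed CPM of 9 neutrophil markers (log scale) in each of the 21 libraries, with WT in orange, Fgg γ390-396A in green, sham in grey, microglia as circles (1 d and sham) or squares (7 d), infiltrating myeloid cells as filled triangles, and open triangles for the sham libraries with 0 counts. WT microglia at 1 d, whose libraries took part in the choice of Inhba, are at 0.905 to 8.05 CPM, and WT replicate 1 at 7 d is at 0.239 CPM. The part of neutrophils in these levels was not tested.

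The genes of the whole table whose pattern was most like that of Inhba over the 21 libraries (Pearson's r of log2 CPM, 12301 genes with a mean of at least 1 CPM) were Alcam (0.956), Acod1 (0.953), Pim1 (0.947), Ier3 (0.947) and Hmox1 (0.943). Acod1 makes itaconate in activated macrophages, Hmox1 breaks down heme, and Alcam is a cell adhesion molecule. Acod1 was 24.4, 2.68 and 14.8 CPM in WT and 2.95, 0.831 and 0.804 CPM in mutant microglia at 1 d, with WT replicate 2 again the lowest of its group. Hmox1 was 103, 78.7 and 169 CPM in WT and 37.3, 37.4 and 65.6 CPM in mutant microglia at 1 d. Ier3 was 45.2, 40.2 and 63.2 CPM in WT and 17.6, 11.4 and 45.2 CPM in mutant microglia at 1 d. Acod1 and Ier3 overlapped between genotypes there, while Alcam, Pim1 and Hmox1 did not. The points share the difference between cell types and include the microglia libraries at 1 d that chose Inhba. A like difference between genotypes was thus favoured by the choice, and these values are a description.

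Tgfb1 was lower in microglia at 1 d than in sham microglia and was highest in infiltrating myeloid cells. It was 120.1, 123.2 and 122.1 CPM in sham microglia, 61.8, 81.8 and 84.8 CPM in WT microglia at 1 d and 69.3, 76.2 and 74.5 CPM in mutant microglia at 1 d. All 6 injured libraries at 1 d were below all sham libraries, with log2 fold changes of -0.68 ± 0.14 in WT (adjusted p = 0.00201) and -0.73 ± 0.14 in mutant mice (adjusted p = 0.00172). Both were under the bar on the fold change and so were not called. At 7 d Tgfb1 was between these levels, at 97.8 ± 8.69 CPM in WT and 89.5 ± 6.83 CPM in mutant microglia (mean ± SD, n = 3).

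Infiltrating myeloid cells carried 148 ± 17.6 CPM of Tgfb1 in WT and 138 ± 8.45 CPM in mutant mice, above every microglia library. The log2 fold change over microglia of the same genotype at 1 d was 0.96 ± 0.14 in WT (adjusted p = 9.17e-05) and 0.92 ± 0.14 in mutant mice (adjusted p = 0.000122). These values lay just under the bar, and 4 alternatives took both above it, DESeq2's size factors among them at 1.03 and 1.04.

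Lrrc33 lay higher in microglia at 1 d than in sham microglia or microglia at 7 d. It was 55.9, 59.2 and 61.5 CPM in sham microglia, 71.0, 78.1 and 79.1 CPM in WT and 76.5, 82.3 and 75.0 CPM in mutant microglia at 1 d. The groups did not overlap, but the change was small, at 0.37 ± 0.13 on the log2 scale in WT (adjusted p = 0.0528) and 0.41 ± 0.13 in mutant mice (adjusted p = 0.0490). At 7 d it was 53.2 ± 1.56 CPM in WT and 56.0 ± 5.32 CPM in mutant microglia, with log2 fold changes from 1 d of -0.52 ± 0.13 (adjusted p = 0.0108) and -0.48 ± 0.13 (adjusted p = 0.0304). Infiltrating myeloid cells held 75.0 ± 7.42 and 76.5 ± 5.86 CPM, and both means were within the range of microglia at 1 d. Their libraries ran from 66.7 to 82.5 CPM, against 71.0 to 82.3 CPM in microglia at 1 d.

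Among the receptor genes of the 10, Tgfbr1 had the widest range of group means. It was 432, 432 and 468 CPM in sham microglia, 136, 109 and 73.3 CPM in WT microglia at 1 d and 211, 156 and 128 CPM in mutant microglia at 1 d. Every library at 1 d was below every sham library. The mean was 4.17 times lower than in sham microglia in WT mice and 2.69 times lower in mutant mice, with log2 fold changes of -2.06 ± 0.23 (adjusted p = 3.61e-06) and -1.43 ± 0.22 (adjusted p = 0.000232). Both calls were kept whichever single library was left out. Among all genes, 4.21% were called lower and 8.06% higher in WT microglia at 1 d than in sham microglia, and 1.15% lower and 5.49% higher in mutant microglia.

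At 7 d Tgfbr1 lay between its level at 1 d and that of sham microglia. WT microglia were at 271, 252 and 266 CPM and mutant microglia at 320, 309.6 and 292 CPM, with all WT libraries below all mutant libraries and both below sham. Against sham the log2 fold change was -0.76 ± 0.22 in WT (adjusted p = 0.0811) and -0.53 ± 0.22 in mutant mice (adjusted p = 0.540), neither called. From 1 d to 7 d it rose by 1.30 ± 0.22 on the log2 scale in WT mice (adjusted p = 0.000590), and the mutant value of 0.90 ± 0.22 was under the bar on the fold change (adjusted p = 0.0189). Between 7 d and 1 d, 2.67% of all genes were called higher and 4.39% lower in WT microglia, and 0.663% and 2.88% in mutant microglia.

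The WT and mutant values of Tgfbr1 overlapped at 1 d, with a mean of 106 ± 31.7 CPM against 165 ± 42.6 CPM and a log2 difference of 0.63 ± 0.22. At 7 d they did not overlap, yet the difference of 0.22 ± 0.22 was not called (adjusted p = 1). In that comparison 0.0252% of all genes were called higher and 0.0126% lower in the mutant. Infiltrating myeloid cells had the least Tgfbr1, at 54.7 ± 9.01 CPM in WT and 50.7 ± 12.7 CPM in mutant mice. The log2 fold change against microglia at 1 d was -0.96 ± 0.22 in WT (adjusted p = 0.00476, under the bar) and -1.70 ± 0.23 in mutant mice (adjusted p = 1.93e-05, called).

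Tgfbr2 was lower in infiltrating myeloid cells than in microglia in both genotypes. It was 112, 143 and 170 CPM in sham microglia, 98.9, 106 and 85.7 CPM in WT and 131, 127 and 111 CPM in mutant microglia at 1 d, and 123.4 to 147 CPM in all 6 microglia libraries at 7 d. Infiltrating myeloid cells held 33.6, 41.9 and 22.3 CPM in WT and 42.4, 39.4 and 35.6 CPM in mutant mice, all below every microglia library. The log2 fold change against microglia was -1.57 ± 0.20 in WT (adjusted p = 1.35e-05) and -1.65 ± 0.20 in mutant mice (adjusted p = 6.32e-06), both called. Against sham, the WT value at 1 d of -0.55 ± 0.19 did not pass the test (adjusted p = 0.0562), nor did the mutant value of -0.21 ± 0.19 (adjusted p = 0.598). Of all genes, 6.31% were called lower and 5.61% higher in WT infiltrating myeloid cells than in microglia, and 9.7% and 6.96% in mutant mice. In the mutant comparison the median of all genes was itself -0.13 on the log2 scale.

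The activin receptors stayed low in all groups. Acvr1b, the type I receptor, had group means between 6.45 and 7.74 CPM, a range of 1.20 times, and neighbouring groups overlapped throughout. Acvr2a, the type II receptor, had group means between 5.24 and 9.09 CPM. Sham replicate 3, at 13.4 CPM, was the highest library for Acvr2a, the other sham libraries being at 7.11 and 6.72 CPM. In mutant infiltrating myeloid cells Acvr2a was 1.90, 10.6 and 4.54 CPM, the widest spread of any group. Neither gene was called by edgeR in any of the 11 comparisons.

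**Figure D2:**
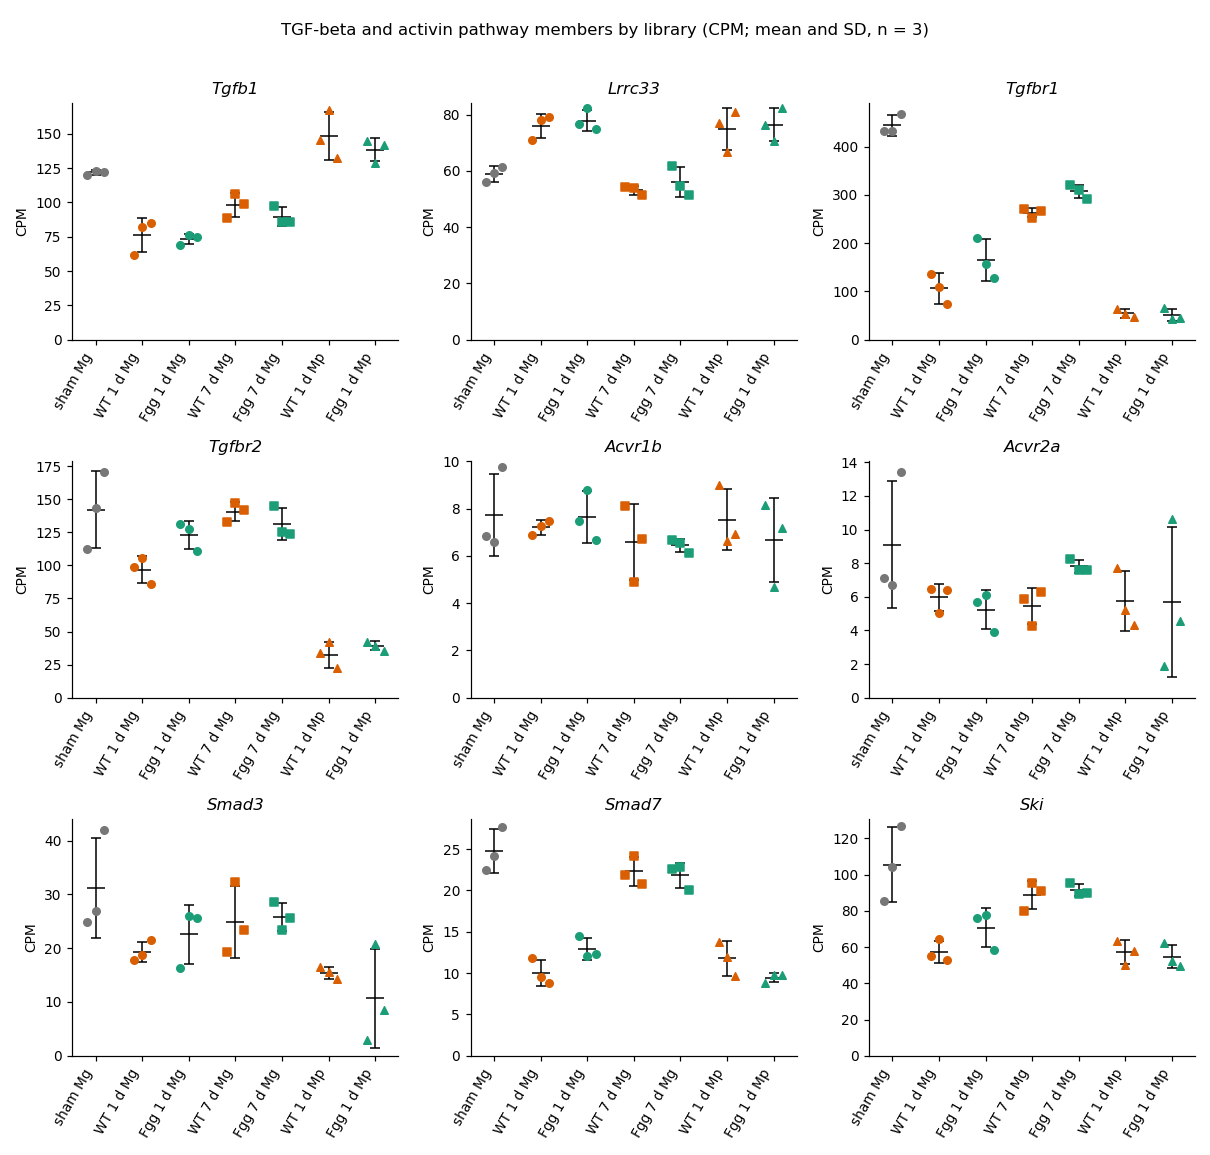
CPM of 9 of the genes in each library (linear axes from 0), by group along the x axis, with the mean and SD of 3 libraries in black, WT in orange, Fgg γ390-396A in green and sham in grey; Mg are microglia and Mp infiltrating myeloid cells. Tgfbr1 goes from 443.9 CPM in sham microglia to 106 and 165 CPM at 1 d and back to 263 and 307 CPM at 7 d, Smad7 goes down at 1 d and up at 7 d, and Tgfbr2 is lowest in infiltrating myeloid cells.

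Smad7 was lower at 1 d, as was Tgfbr1, and its level at 7 d overlapped that of sham microglia. It was 22.4, 24.1 and 27.6 CPM in sham microglia, 11.8, 9.48 and 8.74 CPM in WT and 14.5, 12.03 and 12.3 CPM in mutant microglia at 1 d. All libraries at 1 d were below all sham libraries, and all WT libraries were below all mutant ones. The log2 fold change against sham was -1.31 ± 0.17 in WT (adjusted p = 2.09e-05, called) and -0.94 ± 0.17 in mutant mice (adjusted p = 0.000901), the latter just under the bar on the fold change. DESeq2's size factors put the mutant value at -1.06, past the bar.

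At 7 d Smad7 was 21.9, 24.2 and 20.8 CPM in WT and 22.6, 22.9 and 20.11 CPM in mutant microglia, overlapping sham microglia. Against sham, log2 fold changes were -0.15 ± 0.17 in WT (adjusted p = 0.816) and -0.18 ± 0.17 in mutant mice (adjusted p = 0.896). The log2 fold change from 1 d was 1.16 ± 0.17 in WT (adjusted p = 0.000178, called) and 0.76 ± 0.17 in mutant mice (adjusted p = 0.00990, under the bar). In infiltrating myeloid cells Smad7 was 11.8 ± 2.06 CPM in WT and 9.45 ± 0.56 CPM in mutant mice, and the log2 difference between genotypes was -0.32 ± 0.17 (adjusted p = 0.471).

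Smad3, which carries the signal of both ligands, was variable. It was 24.9, 27.0 and 42.0 CPM in sham microglia and 17.8, 18.7 and 21.5 CPM in WT microglia at 1 d, without overlap, but the log2 fold change of -0.69 ± 0.42 did not pass the test (adjusted p = 0.291). In mutant infiltrating myeloid cells it was 2.85, 20.7 and 8.45 CPM, against 16.4, 15.5 and 14.2 CPM in WT cells. Mutant replicate 2, the highest of these, was also the highest for Acvr2a. Without it the log2 fold change against mutant microglia went from -1.07 (adjusted p = 0.0778) to -1.98 (adjusted p = 0.000782).

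Ski was lower in all injured microglia at 1 d. It was 85.4, 104 and 127 CPM in sham microglia, 55.0, 64.4 and 52.6 CPM in WT and 75.9, 77.9 and 58.5 CPM in mutant microglia at 1 d, with every library at 1 d under every sham library. The log2 fold change was -0.88 ± 0.17 in WT (adjusted p = 0.000766) and -0.58 ± 0.17 in mutant mice (adjusted p = 0.0299), both under the bar. At 7 d it overlapped sham, at 88.7 ± 7.94 and 91.5 ± 3.22 CPM. Infiltrating myeloid cells held 57.3 ± 6.60 and 54.7 ± 6.53 CPM.

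Across the 10 genes, 8 had a log2 fold change below 0 in both genotypes at 1 d against sham, with a median of -0.64 in WT and -0.52 in mutant mice, while the median of all genes was 0. That median takes in genes with no counts in either group, which are fitted at 0. The share of all genes below 0 was not counted, so the 8 are a description. The comparisons share their sham libraries. In WT microglia at 1 d, 2 genes were called lower (Tgfbr1 and Smad7) and Inhba, whose libraries at 1 d chose it, is not counted. In mutant microglia edgeR called 1 lower (Tgfbr1), and DESeq2 called 2. At 7 d against sham, edgeR called 0 of 10 in each genotype, with 3 at an unadjusted p under 0.05 in WT and 2 in mutant mice, while DESeq2 called 1 in WT mice (Inhba) and 0 in mutant mice. Over all 23815 genes tested, 2783 were at an unadjusted p under 0.05 in WT and 1808 in mutant mice. Of all genes, 1.93% were called higher and 0.0924% lower at 7 d in WT, and 0.63% and 0.0336% in mutant mice.

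The libraries at 1 d differed from sham in more than these genes. Ribosomal RNA genes took 43.5% to 47.9% of sham libraries, 50.7% to 58.6% of WT and 47.2% to 52.5% of mutant microglia libraries at 1 d. The summed microglia markers were 2744 to 4233 CPM in WT and 4807 to 6225 CPM in mutant microglia at 1 d and 5976 to 8162 CPM at 7 d, all below sham. The part of either in the levels of Tgfbr1, Smad7, Tgfb1 and Ski was not tested.

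Between genotypes no gene of the 10 other than Inhba was called in any of the 3 comparisons, by edgeR or by DESeq2. Unadjusted p was under 0.05 for 3 of the 10 in microglia at 1 d (Inhba, which was chosen there, Tgfbr1 at 0.00955 and Smad7 at 0.0418, with adjusted p = 0.881 and 0.890), for 0 at 7 d and for 0 in infiltrating myeloid cells. Over all 23815 genes tested, 1209 were under 0.05 in microglia at 1 d, 795 at 7 d and 2749 in infiltrating myeloid cells. The difference between genotype effects was tested as well: the genotype effect in infiltrating myeloid cells minus that in microglia at 1 d was -0.69 ± 0.24 for Smad7 (adjusted p = 0.528) and -0.74 ± 0.31 for Tgfbr1 (adjusted p = 0.542). The effect in microglia at 1 d minus that at 7 d was 0.40 ± 0.24 for Smad7 and 0.41 ± 0.31 for Tgfbr1 (adjusted p = 1 for both).

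**Figure D3:**
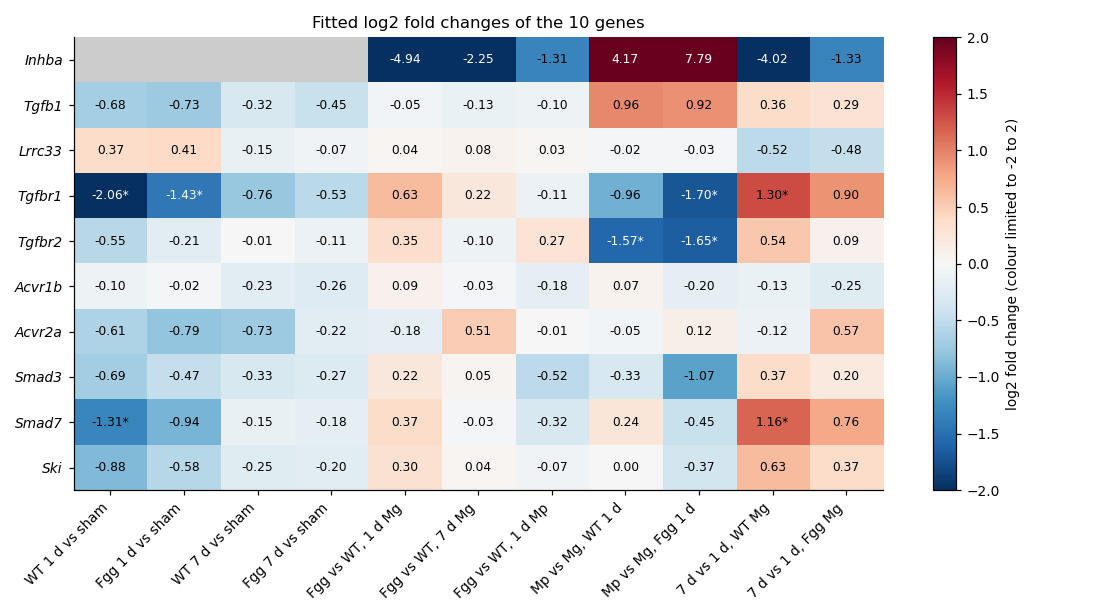
Fitted log2 fold changes of the 10 genes (rows) in 11 comparisons (columns), with the first-named group over the second, colour limited to values between -2 and 2, and * for called genes. Inhba carries no * because it was chosen on libraries at 1 d, and it is grey against sham, where it had 1 count in all. Tgfbr1 and Smad7 are down at 1 d and up from 1 d to 7 d, and Tgfbr2 is down in infiltrating myeloid cells.

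Beyond these genes, 59 others of the pathway were listed by role, of which 53 were tested. In WT microglia at 1 d against sham, 6 were called higher (11.3%, against 8.06% of all genes) and 4 lower (7.55%, against 4.21%), with a median log2 fold change of -0.13. In mutant microglia 5 were higher (9.43%, against 5.49%) and 2 lower (3.77%, against 1.15%), with a median of -0.23. The list as a whole was not tested against other genes. The targets Id2, an inhibitor of DNA binding, and Tgfbi, a secreted matrix protein, were higher in both genotypes, as was Thbs1, a matrix protein that can release latent TGF-beta. Smad1, which carries bone morphogenetic protein (BMP) signals, and the co-receptor Eng were lower in both.

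Tgfbi was 10.4, 19.1 and 27.8 CPM in sham microglia, 107, 180 and 158 CPM in WT and 73.2, 146 and 69.9 CPM in mutant microglia at 1 d, with log2 fold changes of 2.96 ± 0.33 (adjusted p = 3.48e-06) and 2.33 ± 0.32 (adjusted p = 6.45e-05). Id2 went from 5.09 to 8.14 CPM in sham microglia to 45.3 to 116 CPM in WT (3.63 ± 0.37, adjusted p = 1.57e-06) and 30.1 to 52.6 CPM in mutant microglia (2.66 ± 0.36, adjusted p = 5.53e-05). Thbs1 rose from 1.37 to 4.15 CPM in sham to 17.8 to 55.2 CPM in WT (4.18 ± 0.58, adjusted p = 3.37e-05) and 13.2 to 14.1 CPM in mutant microglia (2.54 ± 0.54, adjusted p = 0.00367). No library overlapped with sham for these 3 genes.

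Klf10, a zinc-finger gene induced early by TGF-beta, was 2.29 to 3.75 CPM in sham and 7.89 to 10.0 CPM in WT microglia at 1 d (1.66 ± 0.28, adjusted p = 0.000229), and 8.04 to 10.0 CPM in mutant microglia (1.64 ± 0.28, adjusted p = 0.000455). Smad1 went from 18.1 to 20.06 CPM in sham to 7.34 to 8.89 CPM in WT (-1.24 ± 0.19, adjusted p = 8.12e-05) and 6.91 to 10.4 CPM in mutant microglia (-1.12 ± 0.18, adjusted p = 0.000392). Eng went from 32.6 to 39.5 CPM to 13.6 to 16.97 CPM (-1.23 ± 0.18, adjusted p = 8.34e-05) and 15.0 to 18 CPM (-1.05 ± 0.18, adjusted p = 0.000653). Pmepa1, which encodes an inhibitor of SMAD signaling, went from 86.6 to 89.5 CPM in sham to 37.8 to 50.6 CPM in WT microglia (-1.04 ± 0.19, adjusted p = 0.000450).

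At 7 d against sham 1 of the 53 genes was called higher in WT microglia (1.89%, against 1.93% of all genes), Id2 (1.48 ± 0.34, adjusted p = 0.0203), and 0 were called by edgeR or DESeq2 in mutant microglia, with 8 at an unadjusted p under 0.05. In that mutant comparison 1808 of all 23815 genes tested were under 0.05. From 1 d to 7 d, 4 fell in WT microglia (Tgfbi, Id2, Klf10 and Thbs1; 7.55%, against 4.39% of all genes) and 3 in mutant microglia (Tgfbi, Id2 and Klf10, 5.66% against 2.88%). Tgfbi was back to 19.5 to 20.02 CPM in WT and 16.2 to 18.97 CPM in mutant microglia, within the sham range. Between genotypes edgeR called 0 of the 53 in each of the 3 comparisons. Unadjusted p was under 0.05 for 4 genes in microglia at 1 d, 0 at 7 d and 7 in infiltrating myeloid cells, where DESeq2 called 1. Over all 23815 genes tested, the counts under 0.05 were 1209, 795 and 2749.

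**Figure D4:**
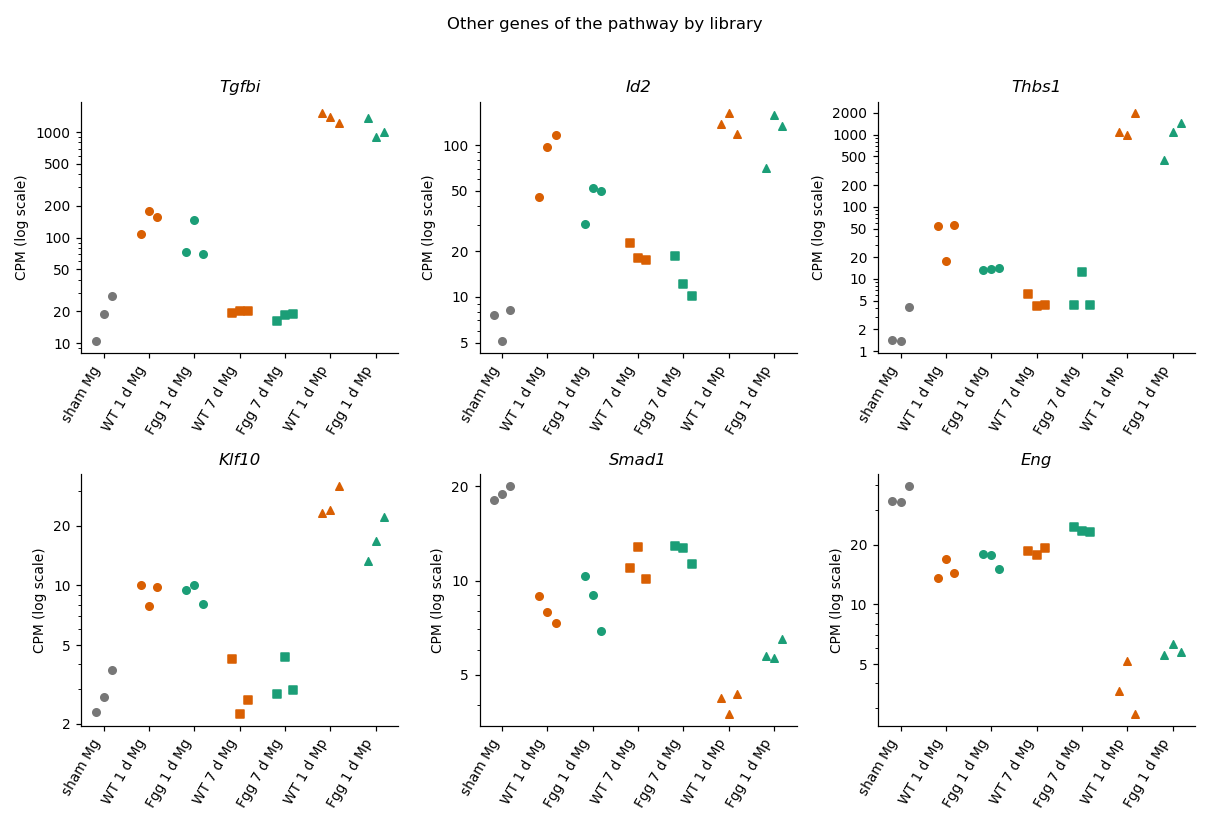
CPM (log scale) of 6 other genes of the pathway in each library, by group, with WT in orange, Fgg γ390-396A in green and sham in grey. Tgfbi, Id2, Thbs1 and Klf10 are higher at 1 d than in sham microglia and highest in infiltrating myeloid cells, where Tgfbi is 908 to 1522 CPM, and Smad1 and Eng are highest in sham microglia.

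Infiltrating myeloid cells were compared with microglia of the same genotype at 1 d. In WT mice 9 of the 53 were called higher (17%, against 5.61% of all genes) and 5 lower (9.43%, against 6.31%) in infiltrating myeloid cells, with a median of 0.52. In mutant mice 10 were higher (18.9%, against 6.96%) and 7 lower (13.2%, against 9.7%), with a median of 0.18. Tgfbi was 1233 to 1522 CPM in WT infiltrating myeloid cells (3.21 ± 0.33 over microglia, adjusted p = 1.32e-06) and Thbs1 987 to 1987 CPM (4.98 ± 0.59, adjusted p = 6.77e-06). Tgif1, which encodes a repressor of SMAD targets, was 61.3 to 86.3 CPM (1.59 ± 0.20, adjusted p = 1.32e-05). Furin, the protease that cleaves the TGF-beta precursor, was 37.7 to 37.9 CPM, against 13.5 to 20.05 CPM in WT microglia (1.11 ± 0.20, adjusted p = 0.000472).

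The genes that were lower in infiltrating myeloid cells included receptors. Eng was 2.79 to 5.16 CPM in WT infiltrating myeloid cells (-1.95 ± 0.19, adjusted p = 1.00e-06) and the BMP receptor Bmpr1a 1.37 to 2.39 CPM (-2.30 ± 0.29, adjusted p = 1.54e-05). Ldlrad4, an inhibitor of TGF-beta signaling, was 1.55 to 2.16 CPM, against 7.30 to 13.6 CPM in WT microglia (-2.53 ± 0.28, adjusted p = 3.71e-06). In mutant mice the same 3 genes were also called lower, by -1.53 ± 0.19 (adjusted p = 8.37e-06) for Eng, -1.71 ± 0.28 (adjusted p = 0.000208) for Bmpr1a and -2.44 ± 0.28 (adjusted p = 3.55e-06) for Ldlrad4. Acvr1, a type I receptor of the family, was 3.57 to 6.64 CPM in mutant infiltrating myeloid cells, against 15.6 to 16.7 CPM in mutant microglia at 1 d (-1.62 ± 0.25, adjusted p = 0.000103).

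A list of 10 microglia genes that depend on TGF-beta signaling was also followed, 6 of which are among the microglia markers used here. In WT microglia at 1 d 8 of 10 were called lower than in sham (4.21% of all genes were), with a median log2 fold change of -1.79, and in mutant microglia 6 of 10 (1.15% of all genes), with a median of -1.14. The 2 with a log2 fold change above 0 in WT were Fcrls (mean 1067 CPM, against 702 CPM in sham) and Olfml3 (296 CPM, against 284 CPM). P2ry12, the purinergic receptor of resting microglia, fell by 3.34 ± 0.46 in WT (adjusted p = 3.31e-05) and 1.96 ± 0.44 in mutant mice (adjusted p = 0.00506) on the log2 scale. P2ry13, a related receptor, had log2 fold changes of -1.78 (adjusted p = 4.87e-05) and -1.01 (adjusted p = 0.0115), and Gpr34, a lysophospholipid receptor, of -2.03 (adjusted p = 0.000392) and -1.44 (adjusted p = 0.0102). At 7 d 2 of 10 were called lower than sham in WT (Tmem119 and P2ry13) and 1 of 10 in mutant microglia (Fcrls). Of all genes, 0.0924% and 0.0336% were called lower there. Sham mice carried the wild-type fibrinogen gene, so a mutant call against sham can hold a difference between genotypes. Mean Fcrls was 702 CPM in sham, 703 CPM in WT and 228 CPM in mutant microglia at 7 d, and 235.5 CPM in mutant microglia at 1 d. From 1 d to 7 d 5 rose in WT microglia (2.67% of all genes were called higher). The 5 were P2ry12, Sparc (1.34, adjusted p = 0.00419), Siglech (1.65, adjusted p = 0.00555), Gpr34 and Sall1, the last a transcription factor of microglial identity. All 10 were called lower in infiltrating myeloid cells than in microglia in both genotypes. This could be foreseen from a list of microglia genes in cells sorted apart from microglia, and is a description. In this comparison 6.31% of all genes were called lower in WT and 9.7% in mutant mice. Olfml3, a secreted protein, had the smallest adjusted p there, at -3.23 ± 0.27 in WT (adjusted p = 2.52e-07) and -3.84 ± 0.28 in mutant mice (adjusted p = 4.43e-08), and Sall1 was lower by -3.84 ± 0.34 in WT mice (adjusted p = 3.22e-07).

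Fcrls was the one gene of this list called between genotypes. At 7 d it was 730, 683 and 697 CPM in WT and 271, 185 and 229 CPM in mutant microglia (log2 fold change -1.63 ± 0.28, adjusted p = 0.0401), and 131, 188 and 81.9 CPM in WT and 33.5, 75.8 and 50.5 CPM in mutant infiltrating myeloid cells (-1.33 ± 0.28, adjusted p = 0.0614). At 1 d it was 901 to 1226 CPM in WT and 197 to 280 CPM in mutant microglia. In GRCm38 Fcrls lies on chromosome 3 at 87250758 to 87263738, and Fgg, the edited gene, lies on the same chromosome at 83007724 to 83015049, 4.24 Mb away. The part of this position in the difference was not tested.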

How the data were processed

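The authors quantified reads against GRCm38 with salmon, run through nf-core/rnaseq, and the deposited values are estimated counts per gene, scaled so that gene length is divided out and each library keeps its total; they are not normalized between libraries. Counts were rounded to whole numbers and tested with edgeR 4.0.16 under R 4.3.3 (TMM normalization with factors of 0.735 to 1.55, quasi-likelihood test, Benjamini-Hochberg adjustment) in one fit of 21 libraries. A gene needed at least 5 counts summed over the series, which 23815 met, and the common biological coefficient of variation was 0.643. Of 45706 gene rows, 45143 matched GENCODE M21. The submitters' processing notes name R 4.2.0 and DESeq2 1.36.0.

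The members and gene lists were chosen with earlier results of these data known. Named were all members; for the pathway list and the list of microglia genes each, up to 3 genes per comparison and direction with the smallest adjusted p among called genes whose libraries did not overlap; and the 5 genes most like Inhba. Where such a gene was named in 1 genotype, its value in the other may be given too. Since each library is a pool of brains, p-values measure the spread between pools. Ratios of Inhba carry 95% intervals by an exact method from pooled counts, for counting error only. These intervals treat the scaled estimated counts as numbers of reads and so are approximate. The fits were tested on simulated data. Alternatives were DESeq2 1.42.0, its size factors, other count filters, ribosomal RNA genes left out, only the compared groups, other thresholds, the replicate number as a block, and leaving out each library. Figures were drawn with matplotlib 3.10.9.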

Additional observations from a re-analysis of the deposited data

How the results depend on the processing

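Of 1650 values of the 10 genes under alternatives, 1604 kept their call and 0 reversed past the threshold; 37 were called only in the alternative and 9 only in the reported fit. In a further count, 60 values changed sign without a call in either fit; they were at most 0.22 in size on the log2 scale in the reported fit and at most 0.695 in the alternative. Counts of the 10 genes include Inhba, and where they use microglia at 1 d, whose libraries chose it, its call is no result. DESeq2's size factors moved the genes by a median of -0.13 in mutant microglia at 1 d against sham and by 0.13 in mutant infiltrating myeloid cells against microglia. The cause was not tested for any of the changes in the counts that follow, other than those of the thresholds themselves.

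For WT microglia at 1 d against sham, 3 of the 10 genes and 10 pathway genes were called; the adjusted p alone gave 5 of the 10, a fold bar of 1.5 gave 5 pathway genes, and leaving out single libraries gave 6 to 10 pathway genes, the lowest without WT replicate 3. For mutant microglia at 1 d against sham (1 and 7), DESeq2 and its size factors each gave 2 of the 10, the adjusted p alone 5, and a fold bar of 1.5 gave 0 of the 10 and 4 pathway genes; leaving out single libraries gave 1 to 2 of the 10 (2 without mutant replicate 1 or sham replicate 1, by Smad7) and 4 to 7 pathway genes (4 without mutant replicate 3). For WT microglia at 7 d against sham (0 and 1), DESeq2 gave 1 of the 10 (Inhba) and 2 pathway genes, the adjusted p alone 3 and a fold bar of 1.5 gave 0 pathway genes, and leaving out single libraries 0 to 2 pathway genes.

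Between genotypes in microglia at 1 d Inhba, which was chosen there, was the 1 called of the 10 genes, and 0 pathway genes were called; the fit of the 2 groups alone gave 0, and leaving out single libraries gave 0 to 1, with 0 without any 1 mutant library or WT replicate 3. In infiltrating myeloid cells (0 and 0) DESeq2 gave 1 pathway gene, and leaving out single libraries gave 0 to 1 of the 10 (Inhba, without mutant replicate 3) and 0 to 1 pathway genes. For WT infiltrating myeloid cells against microglia (2 of the 10), the adjusted p alone gave 4 and leaving out single libraries 2 to 4, with 4 without WT microglia replicate 3. From 1 d to 7 d in WT microglia (3 and 4), the adjusted p alone gave 5 of the 10 and 9 pathway genes and a fold bar of 1.5 gave 1 of the 10. In mutant microglia (0 of the 10) the adjusted p alone gave 3, and leaving out single libraries gave 0 to 1 (Tgfbr1, without mutant replicate 1 at 1 d).

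The labels do not tie libraries of the same number, which were not treated as pairs. Microglia and infiltrating myeloid cells at 1 d may have been sorted from the same brains, which the labels do not say. Their comparisons treat them as independent groups, and the correlations below pool pairs from all groups, so they do not settle pairing between these cell types. Deviations of same-numbered libraries correlated by 0.017 on average over 63 pairs (-0.083 to 0.336), 4 of them over 0.1, against -0.008 over 126 pairs of other numbers (-0.211 to 0.115), 3 of them over 0.1, and 10 of 21 libraries correlated best with their own number. The replicate number as a block left the number of the 10 genes called at 3, 1, 0 and 0 against sham and raised it from 3 to 4 in mutant infiltrating myeloid cells against microglia, by Smad3 (-1.175, adjusted p = 0.0447). Depth limits Inhba above all, which rests on 19 scaled counts in mutant microglia at 1 d.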
